A study of Mus musculus with 23 samples.

Results

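The PGC-1 coactivators Ppargc1a and Ppargc1b were followed in the mouse colon together with 6 nuclear receptors that handle metabolic signals (Ppara, Pparg, Ppard, Esrra, Hnf4a and Rxra) and 2 mitochondrial regulators (Tfam and Nrf1). Members were the probe sets whose single gene symbol in the array's annotation was 1 of these 10 genes, which gave 27 of 45037 probe sets. Of the 27, 25 passed the filter on low values (above the median of their own array on at least 5 of 23 arrays), as did 24627 probe sets of the whole array. The 2 that did not pass were Ppard 1425703_at and Rxra 1430497_at, with highest signals of 50.8 and 48.4. The genes were chosen for their biology and not by a measured value, although earlier results of these data were known when they were listed. A further probe set, 1447902_at, is annotated to Ppard together with another gene, did not pass the filter and was left out.

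PGC-1 proteins do not bind DNA themselves. They dock on transcription factors, above all nuclear receptors such as the PPARs, ERR alpha (Esrra) and HNF4 alpha (Hnf4a) and on nuclear respiratory factor 1 (Nrf1), and so raise the output of genes for fatty acid oxidation and for building mitochondria, in part through the mitochondrial DNA factor Tfam. In the colon the epithelium lives largely on oxidation of butyrate, PPAR gamma is abundant in colonocytes, and HNF4 alpha helps to keep the intestinal epithelium differentiated.

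All mice were C57BL/6J and 12 to 14 weeks old. They received 3% dextran sulfate sodium (DSS), a polymer that injures the colon epithelium, in the drinking water. Colon was taken from separate animals on day 0, before treatment (5 mice), day 2 (6 mice), day 4 (6 mice) and day 6 (6 mice), and RNA from each was hybridized to 1 Affymetrix Mouse Genome 430 2.0 array. The labels give no sex, no colon section and no water-only mice at later days, so that day and DSS cannot be told apart. The labels give the tissue as colon and name no separation of cell types. Fewer cells of a type and less RNA per cell therefore cannot be told apart either.

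The arrays also carried RNA of neighbouring tissue. Summed over 15 skeletal muscle markers the signal ran from 1583 to 107402, with the lowest values on day 2 mouse 8 and day 4 mouse 8, which were also lowest for squamous epithelium. The summed pancreas markers reached 183888 on day 2 mouse 6 and 51325 on day 6 mouse 1, against 2754 to 11685 on the others. These 4 arrays stood apart, and each member call that was lost without them is named beside its result. All 18 genes of the pan-epithelial marker list passed the filter, as did the 14 measured markers of absorptive colonocytes, and 3 and 7 of the 18 pan-epithelial genes fell at day 4 and day 6. The log2 signal of the hybridization controls, bacterial transcripts added to each sample, was 11.35 to 11.51 on day 0, 11.15 to 11.46 on day 2, 10.83 to 11.15 on day 4 and 10.68 to 11.14 on day 6. Day 4 and day 6 therefore did not overlap day 0 in this technical measure. An adjustment for it ended many calls of the members, as given with the results. The log2 ratio of the 3′ to the 5′ control probe set of beta-actin, a measure of RNA quality, was 0.40 to 0.45 on day 0 and 0.39 to 0.56 on day 2. It was 0.53 to 0.70 on day 4 and 0.47 to 0.59 on day 6, so neither overlapped day 0. The same ratio of Gapdh had means of -0.39, -0.34, -0.21 and -0.24. No fit was adjusted for these ratios, and their part in the differences between probe sets was not tested.

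For the 2 genes with most calls, the bases just before annotated starts are printed 5′ to 3′ on the gene's strand, as RefSeq gives them for GRCm38.p6. Ppargc1a lies on the minus strand (annotated gene chr5:51454249-52115853), and its window in the table (chr5:51567726-51567975, 250 bases) precedes a start well inside the annotated gene, not its outer end. Hnf4a lies on the plus strand and has a pair of starts in this table, 40298 bases apart. The window of the first (chr2:163506607-163506856, 250 bases) reaches into the annotated gene, which begins at 163506811. It is printed only up to the gene's outer end (chr2:163506607-163506810, 204 bases), so the bases directly before this start are left out. The window of the other is chr2:163546905-163547154 (250 bases). Capitals mark CGTCA, the cyclic AMP response element half-site, in Ppargc1a, and ATTAAC, the reverse complement of the HNF1 half-site GTTAAT, in Hnf4a.
Ppargc1a: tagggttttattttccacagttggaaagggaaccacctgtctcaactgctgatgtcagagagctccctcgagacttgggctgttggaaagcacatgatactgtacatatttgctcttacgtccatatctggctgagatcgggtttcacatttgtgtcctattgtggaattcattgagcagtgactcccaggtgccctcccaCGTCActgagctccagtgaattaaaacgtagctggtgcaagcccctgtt
Hnf4a, outer start: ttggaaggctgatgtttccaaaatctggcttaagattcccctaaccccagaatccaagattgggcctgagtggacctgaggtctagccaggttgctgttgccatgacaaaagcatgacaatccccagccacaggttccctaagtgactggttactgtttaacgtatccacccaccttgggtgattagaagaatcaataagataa
Hnf4a, inner start: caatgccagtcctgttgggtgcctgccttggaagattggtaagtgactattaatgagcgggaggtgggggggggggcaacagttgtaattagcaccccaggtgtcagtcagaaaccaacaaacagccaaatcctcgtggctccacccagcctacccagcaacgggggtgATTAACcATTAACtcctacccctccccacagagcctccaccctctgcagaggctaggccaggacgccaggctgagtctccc

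The CGTCA of Ppargc1a began 49 bases before the start. The window of the inner Hnf4a start held ATTAAC at 81 and at 74 bases before it, with 1 base between them. CGTCA occurred on either strand in 17.8% of all 32851 windows of 250 bases in the table and GTTAAT in 6.43%. Of the 14 windows of the members, 2 held CGTCA on either strand, that of Ppargc1a and that of Ppara (as TGACG), and 1 held GTTAAT. Of 9 members with a window (14 windows), AGGTCA, the half-site bound by nuclear receptors, was found in 3 windows, 1 of Rxra and 2 of Pparg, against 14% of all windows. The longer ERR element TCAAGGTCA (0.387% of all windows) and the direct repeat of 2 AGGTCA half-sites with 1 base of any kind (N) between them (0.0335%) were in none of the 14; both contain AGGTCA. The nuclear respiratory factor 1 site, GCGCA then N then GCGC (3.74% of all windows), was in 1 window of Ppara, and the ETS site CCGGAAGT (2.88%) in that of Tfam. These matches describe letters in the windows only, and where the probes lie on the transcripts was not analysed here.

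No member was called higher than day 0 at any day, and the calls that were made lay in Ppargc1a, Hnf4a and Ppara. A probe set was called when limma's adjusted p, over all 24627 tested probe sets, was 0.05 or less. At day 2, 0 of 25 were called, where 0.122% of all probe sets were; 2 members had an unadjusted p under 0.05. At day 4, 5 of 25 were lower and none higher; 18.7% of all probe sets were called, 9.06% lower and 9.68% higher. At day 6, 10 of 25 were lower and none higher, against 29.5% called, 15.3% lower and 14.2% higher, over the whole array. The median log2 change over the 25 was 0.00, -0.20 and -0.35 at days 2, 4 and 6, beside -0.00, 0.02 and -0.01 over all tested probe sets. The 3 comparisons share the 5 day 0 arrays and several calls come from probe sets of 1 gene, so the counts are not independent of each other.

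**Figure D1:**
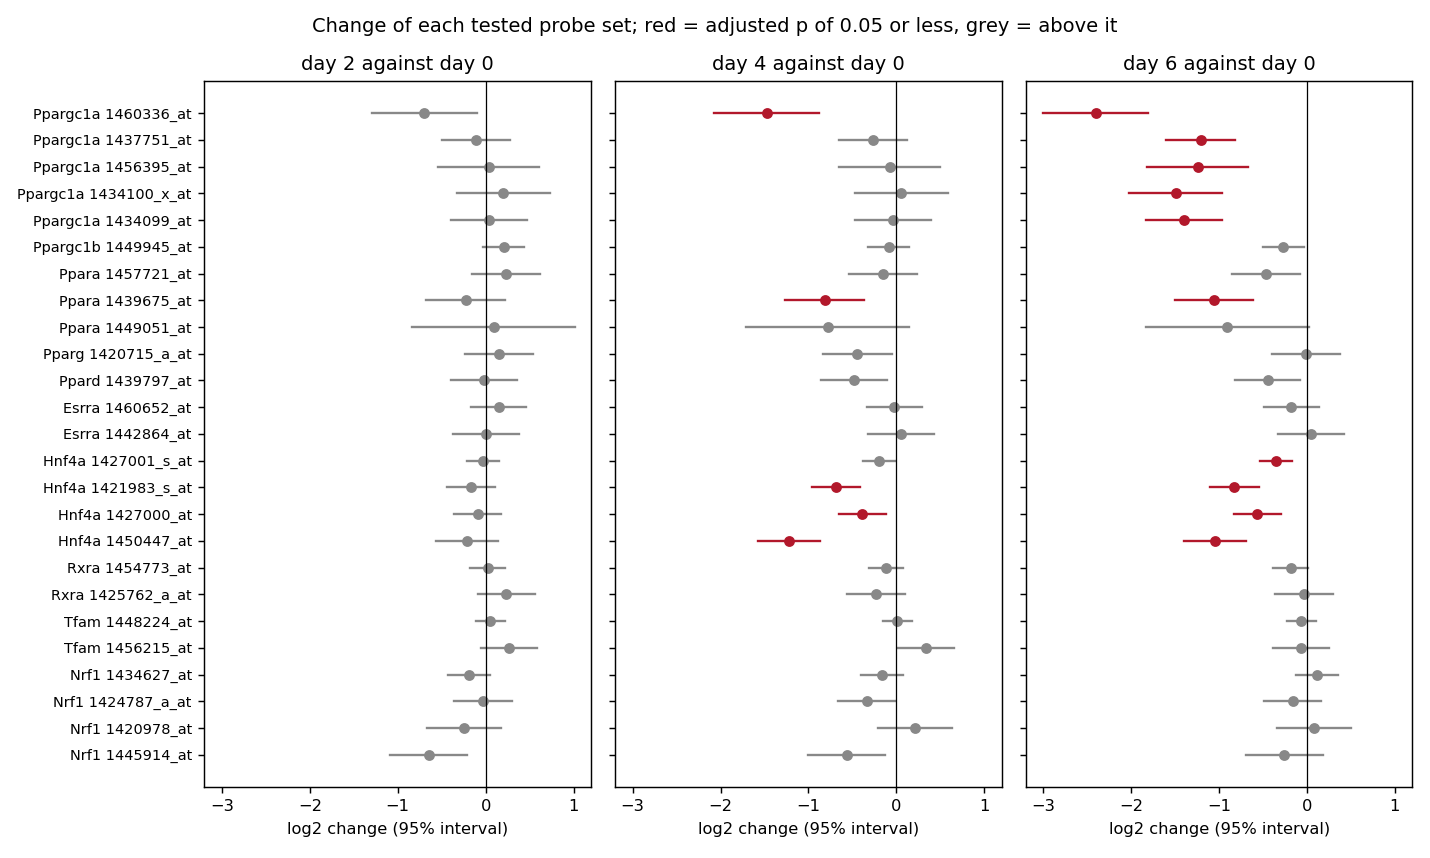
Log2 change of log2(signal + 16) against day 0 for the 25 tested probe sets (points) with 95% intervals from limma (lines), 1 panel per day; red marks an adjusted p of 0.05 or less. No red point lies in the day 2 panel, 5 lie in the day 4 panel and 10 in the day 6 panel, all of them below 0.

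Ppargc1a, which encodes PGC-1 alpha, the inducible coactivator of mitochondrial biogenesis, had the largest losses, but its 5 probe sets parted at day 4. Probe set 1460336_at was lower at each successive day, while 1437751_at, 1456395_at, 1434100_x_at and 1434099_at stayed near their day 0 signal up to day 4 and were low at day 6. In 1460336_at the day 0 signals were 1029, 1154, 1207, 1210 and 1394. Day 2 ran from 433 to 938 with a median of 850, day 4 from 332 to 600 with a median of 385, and day 6 from 77.8 to 517 with a median of 225. All treated arrays of the 3 days lay below all day 0 arrays, while neighbouring days overlapped from day 2 on.

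The change of 1460336_at from day 0 was -0.70 ± 0.29 (log2, SE) at day 2, which did not pass (adjusted p = 0.307). It fell by 1.48 ± 0.29 at day 4 (adjusted p = 0.00113), which is 2.78-fold lower, and by 2.40 ± 0.29 at day 6 (adjusted p = 1.56e-06), 5.29-fold lower. Between neighbouring days the step from day 2 to day 4 was -0.78 (adjusted p = 0.0626) and that from day 4 to day 6 was -0.93 (adjusted p = 0.0205). The last call ended without day 6 mouse 7 (adjusted p = 0.0572) or without day 6 mouse 21 (0.0517). It also ended with the white adipocyte covariate (-0.84, adjusted p = 0.0663) and with the arrays of these 2 days alone (0.0718). The white adipocyte covariate is the mean of 7 genes. Among them is Pck1, also an HNF4A target of the epithelium, which changed by -1.69 from day 0 to day 6. With the hybridization control level as a covariate the day 4 change was -1.53 but did not pass (adjusted p = 0.0739), and the day 6 change was -2.47 (adjusted p = 0.00765).

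The other 4 probe sets of Ppargc1a showed no such stepwise loss. Probe set 1434099_at had day 0 signals of 484, 520, 524, 581 and 666, then 462 to 672 (median 573) at day 2 and 434 to 644 (median 528) at day 4. At day 6 it ran from 96.9 to 433 with a median of 197, all below day 0 and day 4. In 1434100_x_at, whose suffix marks probes that can match other sequences, the signals were 512, 521, 614, 670 and 717 at day 0 and 560 to 772 (median 602) at day 4. At day 6 they were 82.2 to 511 (median 209), again with no overlap. Probe set 1437751_at went from 626, 634, 638, 739 and 800 at day 0 to 477 to 621 (median 573) at day 4 and 152 to 540 (median 276) at day 6. In 1456395_at, day 0 held 488, 540, 640, 733 and 753, day 4 ran from 455 to 765 (median 577) and day 6 from 101 to 670 (median 244), so that 1 day 6 array overlapped day 0.

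The 6 day 4 arrays of 1437751_at all lay below day 0, by a narrow margin (621 against 626). Over the 4 probe sets the day 4 changes lay between -0.27 and 0.06 and none passed (adjusted p from 0.345 to 0.918). At day 6 all 4 fell, with changes of -1.21 ± 0.19 for 1437751_at, -1.24 ± 0.28 for 1456395_at, -1.40 ± 0.21 for 1434099_at and -1.49 ± 0.26 for 1434100_x_at, and with adjusted p from 2.38e-05 to 0.00146. Against day 4 as well, all 5 probe sets of Ppargc1a were lower at day 6, and these were the only members called between days 4 and 6 (5 of 25, all lower, beside 18.2% of all probe sets called and 10.2% called lower). The day 6 fall of 1456395_at was not called with the pan-epithelial marker level as a covariate (-0.93, adjusted p = 0.0597); the other 4 stayed called, with changes from -0.99 to -2.18. Averaged over its probe sets, Ppargc1a changed by -0.36 at day 4 (adjusted p = 0.299), a mean over 1 probe set called lower and 4 not called.

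**Figure D2:**
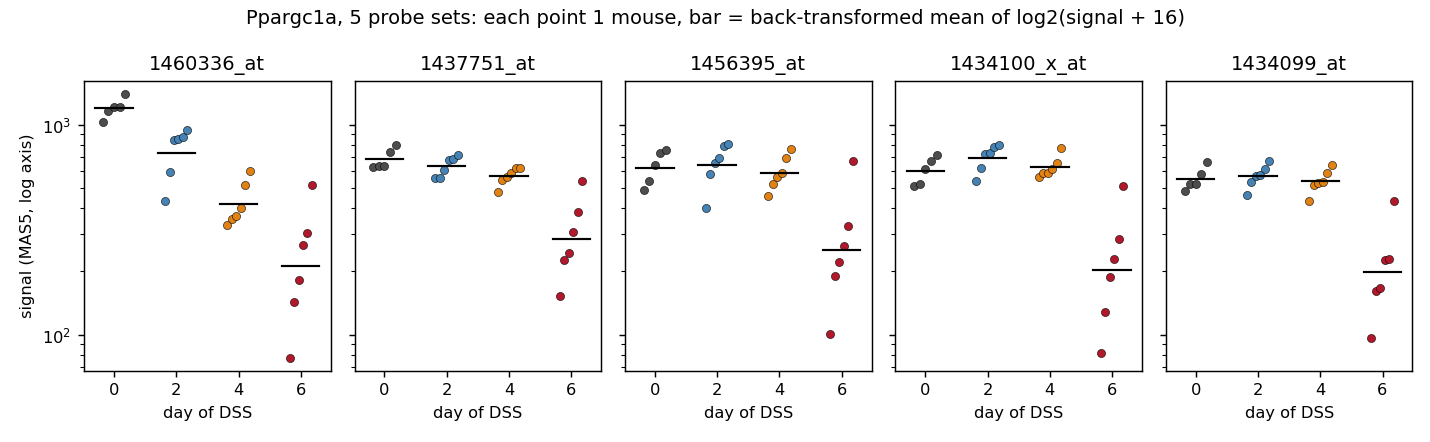
Signal of the 5 Ppargc1a probe sets on each of 23 arrays (1 point per mouse, logarithmic axis) by day of DSS; bars are means of log2(signal + 16) turned back to signals. In 1460336_at the day 2 and day 4 arrays lie below all day 0 arrays, whereas in the other 4 the drop is seen at day 6.

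The disagreement was measured as the difference between 1460336_at and each other Ppargc1a probe set within an array. It was set to 0 at the day 0 mean because levels of different probe sets cannot be compared. That these probe sets disagree in these data was known beforehand, and the 4 differences share 1460336_at. Their p-values therefore describe the size of a known pattern and are not independent support for it. Measured against the mean of the other 4, the difference was -0.12 to 0.23 on the 5 day 0 arrays. It was -1.42 to -0.45 at day 2, -1.77 to -1.0 at day 4 and -1.32 to -0.71 at day 6. No treated array reached the day 0 range. The 4 tested differences were -1.21, -1.40, -1.53 and -1.44 at day 4 (against 1437751_at, 1456395_at, 1434100_x_at and 1434099_at; highest adjusted p = 0.000106, lowest 5.92e-06), and all were called. At day 6 they were -1.19, -1.16, -0.91 and -1.0 and all were called (adjusted p from 0.000334 to 0.00473). At day 2 they were -0.58, -0.73, -0.90 and -0.74, which did not pass (adjusted p from 0.0868 to 0.233).

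**Figure D3:**
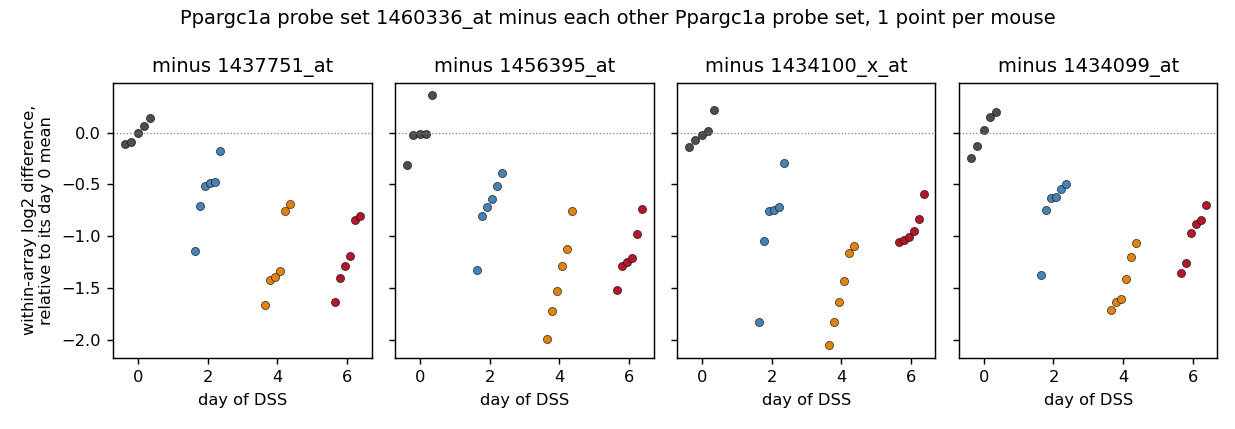
Within-array difference of log2(signal + 16) between Ppargc1a probe set 1460336_at and each of the other 4, relative to the day 0 mean of that difference (dotted line), 1 point per mouse. Day 2, day 4 and day 6 points lie below the dotted line in all 4 panels.

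Over the 10 genes 15 such pairs could be formed, from 7 genes with more than 1 tested probe set. At day 4, 7 of 15 were called, against 24.5% of all 9177 same-gene pairs of the array; at day 6, 7 of 15, against 11.5%; at day 2, 0 of 15, against 0.0109%. The 7 were the same pairs at both days: 4 of Ppargc1a, 2 of Hnf4a and 1 of Ppara. The 4 of Ppargc1a share 1 probe set and were known to disagree, and the 2 of Hnf4a share 1427001_s_at, so the counts are not independent evidence. Without day 2 mouse 1, the difference between 1460336_at and 1434100_x_at was called at day 2 as well (-1.02, adjusted p = 0.0412). With the hybridization control covariate none of the 7 was called at day 6, and the 4 of Ppargc1a then had changes from -0.42 to -0.94 (adjusted p from 0.195 to 0.607), so the day 6 calls rest on the fit without it. At day 4 the difference to 1456395_at was also lost (-0.95, adjusted p = 0.0539), and the other 3 of Ppargc1a were kept. The Ppara pair and the Hnf4a pair of 1427001_s_at and 1421983_s_at were lost at day 4 too (adjusted p = 0.181 and 0.171).

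Among the day 6 mice, mouse 3 was highest and mouse 7 lowest in all 5 probe sets of Ppargc1a, with 517 and 77.8 in 1460336_at and 433 and 96.9 in 1434099_at. On the array of mouse 3 the neutrophil markers summed to 2987, the lowest of day 6, where the other 5 arrays had 8412 to 15896. The 8412 was that of mouse 7, so the mouse lowest in Ppargc1a had the lowest sum of these 5. The part of the neutrophil markers in the Ppargc1a values was not tested. Markers of skeletal muscle, a tissue that also expresses Ppargc1a, summed to 82238 on mouse 3, 21515 on mouse 7 and 107402 on mouse 21, where 1460336_at had a signal of 142. With the skeletal muscle marker level as a covariate the changes of 1460336_at were -1.55 at day 4 (adjusted p = 0.000757) and -2.47 at day 6 (adjusted p = 9.14e-07).

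Ppargc1b encodes PGC-1 beta, the close relative that also coactivates ERR alpha, and has 1 probe set, 1449945_at. Its day 0 signals were 1879, 2191, 2333, 2420 and 2504. Day 2 ran from 2357 to 2821 (median 2618), day 4 from 1852 to 2291 (median 2183) and day 6 from 1365 to 2494 (median 1911). All days overlapped day 0, but day 4 lay wholly below day 2; 4.98% of all probe sets had no overlap between these days. The changes of 0.20, -0.09 and -0.27 against day 0 did not pass (adjusted p = 0.474, 0.644 and 0.0818). From day 2 to day 6 it fell by 0.47 ± 0.11 (adjusted p = 0.00242). That call was lost with the hybridization control covariate (-0.30, adjusted p = 0.344) and with the pan-epithelial covariate (-0.30, 0.227). The change from day 0 to day 6 became a call when mouse 4 of day 0 was left out (adjusted p = 0.0404), and likewise for mouse 1 (0.0381) and mouse 3 (0.0154) of day 6.

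Ppara, the fatty acid receptor that drives oxidation genes, has 3 tested probe sets, of which 1 was called. Probe set 1439675_at held 383, 420, 435, 492 and 615 at day 0, 286 to 547 (median 384) at day 2, 200 to 311 (median 255) at day 4 and 99.4 to 349 (median 229) at day 6. Day 4 and day 6 lay wholly below day 0. It fell by 0.82 ± 0.22 at day 4 (adjusted p = 0.0103) and by 1.06 ± 0.22 at day 6 (adjusted p = 0.000646). Both calls were lost with the hybridization control covariate (-0.81, adjusted p = 0.202; -1.05, adjusted p = 0.12), with the size little changed, and the day 4 call also with the pan-epithelial covariate (-0.75, adjusted p = 0.0627).

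The other Ppara probe sets gave no call against day 0. In 1457721_at, day 0 held 306, 372, 394, 403 and 413, and the later days ran from 326 to 573, from 237 to 436 and from 151 to 400. All of them overlapped day 0. Its changes were 0.23, -0.15 and -0.47 at days 2, 4 and 6 (adjusted p = 0.652, 0.632 and 0.0644), and the last was called without day 6 mouse 1 or mouse 29 and without the 4 arrays that stood apart. Probe set 1449051_at was scattered already at day 0, with 142, 144, 163, 310 and 420, and its day 6 signals ran from 17.1 to 350. Its changes of -0.78 at day 4 and -0.90 at day 6 did not pass (adjusted p = 0.24 and 0.136); without day 6 mouse 1 the day 6 change was called (-1.22, adjusted p = 0.0317).

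The probe sets of Ppara thus differed in size rather than in direction at day 6. Within arrays, 1457721_at gained on 1439675_at by 0.67 ± 0.18 at day 4 (log2, adjusted p = 0.0098) and by 0.59 ± 0.18 at day 6 (adjusted p = 0.0364). The day 6 call was lost when any of day 0 mice 1, 4 and 5 or day 6 mice 7 and 29 was left out (highest adjusted p = 0.0912). Both calls were lost with the hybridization control covariate (0.65, adjusted p = 0.181; 0.57, adjusted p = 0.45), and the day 6 call with the pan-epithelial one (0.75, adjusted p = 0.0582). Day 6 mouse 7, lowest in Ppargc1a, was also lowest in all 3 probe sets of Ppara, with 99.4, 151 and 17.1, while day 6 mouse 1 was highest in all 3, with 349, 400 and 350.

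Pparg, the receptor of colonocytes and fat cells, had its lowest median at day 4, without a call against day 0. Its 1 probe set, 1420715_a_at, which reads alternative transcripts of the gene, held 1279, 1352, 1381, 1556 and 1704 at day 0. Day 2 ran from 1138 to 1983 (median 1632), day 4 from 786 to 1485 (median 1034) and day 6 from 1055 to 2492 (median 1229). Every day overlapped day 0, and at day 6 mice 1 and 7 (1974 and 2492) stood above all day 0 arrays while 4 mice lay below all of them. Against day 0 the changes were 0.15, -0.44 and -0.01 (adjusted p = 0.794, 0.104 and 0.967).

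From day 2 to day 4 Pparg fell by 0.60 ± 0.18 (adjusted p = 0.0309), a call that was lost when any of day 2 mice 7, 8 and 17 or day 4 mice 1, 4 and 6 was left out (highest adjusted p = 0.078). It was also lost with the hybridization control covariate (-0.10, adjusted p = 0.842) and the pan-epithelial one (-0.41, 0.419). Without day 4 mouse 8, 1 of the arrays with little neighbouring tissue, the change from day 0 to day 4 was called as well. White adipocyte markers, which share Pparg with colonocytes, summed to 5742 on day 6 mouse 1 and to 12318 on mouse 7. Their highest day 6 sum, 15398, was on mouse 21 with a Pparg signal of 1257, and their part in the Pparg values was not tested.

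Ppard, the most widely expressed PPAR, was lower on average at days 4 and 6 without a call. Its tested probe set, 1439797_at, held 1378, 1678, 1877, 1915 and 2364 at day 0, then 1350 to 2660 (median 1758), 986 to 1665 (median 1295) and 922 to 1895 (median 1280). All days overlapped day 0. The changes were -0.02, -0.48 and -0.45 (adjusted p = 0.982, 0.0673 and 0.0649), close to the threshold: the day 4 change was called without day 0 mouse 4 or day 4 mouse 7, and the day 6 change without any of day 0 mouse 4, day 2 mouse 17 and day 6 mice 3 and 29. Probe set 1425703_at, which did not pass the filter, ran from 2.15 to 50.8.

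Esrra encodes ERR alpha, the orphan receptor through which PGC-1 proteins reach many respiratory chain genes, and showed no call in any comparison. In 1460652_at, day 0 held 1298, 1814, 1973, 2030 and 2045, day 2 ran from 1619 to 2455 (median 2046), day 4 from 1437 to 2013 (median 1889) and day 6 from 997 to 2058 (median 1731). In 1442864_at, day 0 held 202, 240, 241, 323 and 392, and the later days ran from 207 to 329, from 212 to 383 and from 202 to 379. Both probe sets overlapped day 0 at each day. The changes were 0.15, -0.02 and -0.18 in the first and 0.00, 0.05 and 0.05 in the other, with adjusted p from 0.407 to 0.995. The 95% interval at day 6 ran from -0.49 to 0.13 in 1460652_at, so a loss of the size seen in Ppargc1a lies outside it.

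Hnf4a, the receptor that maintains enterocyte genes, fell on all 4 of its probe sets at day 6 and on 3 of 4 at day 4, by unequal amounts. The strongest change was in 1450447_at, which held 972, 1012, 1033, 1141 and 1337 at day 0. It ran from 617 to 1236 (median 985) at day 2, from 343 to 626 (median 432) at day 4 and from 432 to 716 (median 507) at day 6. Days 4 and 6 lay wholly below day 0, while day 2 spanned it. The change was -0.21 at day 2 (adjusted p = 0.646), after which it fell by 1.22 ± 0.17 at day 4 (adjusted p = 6.47e-05, 2.33-fold lower) and by 1.04 ± 0.17 at day 6 (adjusted p = 5.62e-05, 2.06-fold lower).

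The other 3 probe sets of Hnf4a followed with smaller losses. Probe set 1421983_s_at, whose suffix marks probes shared by several transcripts, went from 3456, 3674, 4050, 4458 and 4972 at day 0 to 2154 to 3197 (median 2527) at day 4 and 1765 to 3093 (median 2197) at day 6. Neither day overlapped day 0, and the falls were 0.69 ± 0.13 (adjusted p = 0.00107) and 0.83 ± 0.13 (adjusted p = 5.93e-05). Probe set 1427000_at went from 3219, 3496, 3607, 3795 and 4103 to 2279 to 3155 (median 2799) and 1871 to 3808 (median 2410). It fell by 0.39 ± 0.13 at day 4 (adjusted p = 0.0379) and by 0.56 ± 0.13 at day 6 (adjusted p = 0.00178), where day 6 mouse 7 reached the day 0 range. The day 4 call of 1427000_at was lost when any of day 0 mice 1, 3, 4 and 5 or day 4 mice 1, 3, 4 and 6 was left out (highest adjusted p = 0.0945), and with the skeletal muscle (-0.35, 0.0568) and white adipocyte (-0.37, 0.0728) covariates.

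In 1427001_s_at the loss was smallest. Its day 0 signals were 8738, 9080, 9218, 9940 and 10085.5, those of day 4 ran from 7325 to 9198 (median 8237) and those of day 6 from 5740 to 8571 (median 7698). Day 6 lay wholly below day 0. The change was -0.20 ± 0.09 at day 4 (adjusted p = 0.121) and it fell by 0.35 ± 0.09 at day 6 (adjusted p = 0.00355). At day 2, the 4 probe sets had changes between -0.21 and -0.03, none of them called.

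The inequality between Hnf4a probe sets was itself called. Within arrays, 1427001_s_at gained on 1450447_at by 1.02 ± 0.17 at day 4 (adjusted p = 0.000261) and by 0.69 ± 0.17 at day 6 (adjusted p = 0.0109), and on 1421983_s_at by 0.49 ± 0.11 (adjusted p = 0.00282) and 0.47 ± 0.11 (adjusted p = 0.00805). With the hybridization control covariate, the difference to 1450447_at was kept at day 4, while that to 1421983_s_at was lost (0.41, adjusted p = 0.171), as were both at day 6 (0.74, adjusted p = 0.311; 0.36, adjusted p = 0.428). Both day 6 calls were also lost with the pan-epithelial covariate (0.63, adjusted p = 0.0998; 0.46, adjusted p = 0.065). Against 1427000_at the differences of 0.19 and 0.21 did not pass (adjusted p = 0.221 and 0.217). Array by array, the difference of 1450447_at to 1427001_s_at, set to 0 at its day 0 mean, was -0.21 to 0.39 at day 0, -0.72 to 0.16 at day 2, -1.27 to -0.74 at day 4 and -0.98 to -0.35 at day 6. Days 4 and 6 thus stood apart from day 0, as in Ppargc1a, but day 2 did not. Which of the printed Hnf4a starts each probe set reads was not analysed here.

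Of 18 pan-epithelial markers, 3 were lower at day 4 (median log2 change -0.10) and 7 at day 6 (median -0.16), and none was higher. Over all genes 4.59% and 13.9% were lower. Whether these markers moved together with Hnf4a was not tested. With the pan-epithelial marker level as a covariate, 1450447_at was still called at day 4 (-0.98, adjusted p = 0.00133) and day 6 (-0.73, adjusted p = 0.0081), and so was 1421983_s_at (-0.49, 0.0212; -0.56, 0.00855). The calls of 1427000_at at both days and of 1427001_s_at at day 6 were lost (adjusted p = 0.342, 0.112 and 0.32), the last with a change of -0.10. With the hybridization control covariate 1450447_at alone was called at day 4 (-1.20, adjusted p = 0.0252) and none of the 4 at day 6 (adjusted p from 0.051 to 0.58).

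**Figure D4:**
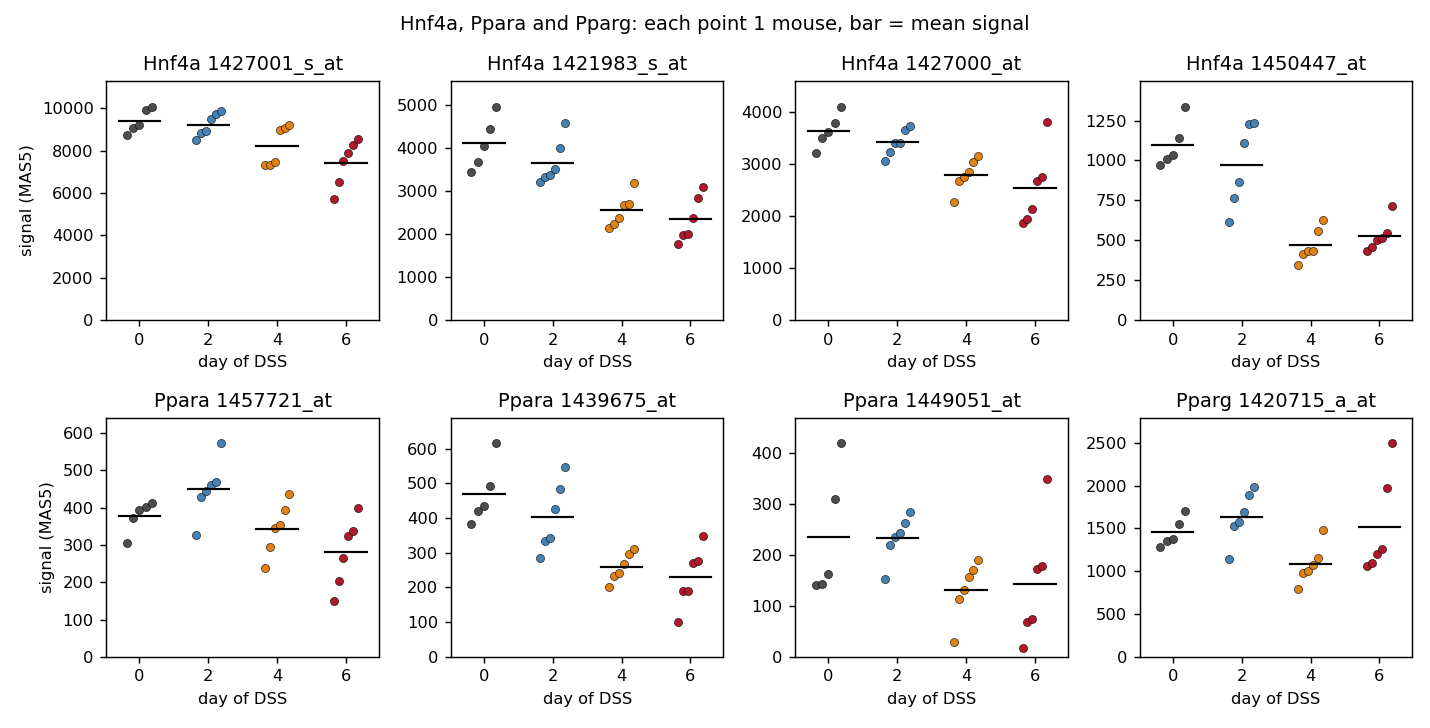
Signals of the tested probe sets of Hnf4a, Ppara and Pparg on each array by day of DSS (1 point per mouse, linear axis from 0), with bars at the mean signal. In Hnf4a 1450447_at all day 4 and day 6 points lie below day 0. In Pparg 1420715_a_at the day 4 bar is lowest, with points that overlap the other days, while 2 day 6 mice are above day 0.

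Rxra encodes the partner with which the PPARs bind DNA as a pair. Its probe set 1454773_at held 940, 964, 980, 986 and 1035 at day 0, then 904 to 1229 (median 947), 826 to 1043 (median 906) and 735 to 1100.5 (median 830). The changes of 0.02, -0.12 and -0.18 did not pass (adjusted p = 0.944, 0.417 and 0.155). Day 6 mouse 1, the array with pancreas signal, was the highest of day 6, and without it the day 6 change was called (-0.25, adjusted p = 0.0331). In 1425762_a_at, day 0 held 196, 225, 310, 329 and 334 and the later medians were 326, 232 and 276, with changes of 0.23, -0.23 and -0.04 (adjusted p = 0.569, 0.326 and 0.888). Probe set 1430497_at, below the filter, ran from 2.25 to 48.4.

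Tfam, which packages and transcribes mitochondrial DNA, gave no call in any comparison. Probe set 1448224_at held 1181, 1218, 1230, 1291 and 1362 at day 0, then 1137 to 1490 (median 1302), 1177 to 1405 (median 1246) and 1088 to 1312 (median 1188). The changes were 0.05, 0.01 and -0.07 with an SE of 0.08, and the 95% interval at day 6 was -0.23 to 0.10. In 1456215_at, day 0 held 126, 145.5, 161, 166 and 173 and the later days ran from 160 to 216, from 149 to 257 and from 122 to 227. Its changes of 0.26, 0.33 and -0.06 did not pass (adjusted p = 0.501, 0.133 and 0.789). From day 4 to day 6 it changed by -0.40, close to the threshold (adjusted p = 0.0594).

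Nrf1, nuclear respiratory factor 1, is a DNA-binding activator of respiratory chain genes and of Tfam. Its 4 probe sets gave no call against day 0. In 1434627_at, day 0 held 277, 296, 377, 394 and 395, and the later days ran from 274 to 320 (median 300), from 263 to 365 (median 306) and from 299 to 469 (median 383). The changes were -0.19, -0.16 and 0.12 (adjusted p = 0.519, 0.365 and 0.482). Probe set 1424787_a_at ran from 181 to 422 over all days with changes of -0.03, -0.34 and -0.16, and 1420978_at from 52.6 to 206 with changes of -0.25, 0.21 and 0.08. In 1445914_at all 6 day 2 arrays (65.8 to 140) lay below the 5 of day 0 (142, 145, 161, 161 and 272). Its changes were -0.65, -0.57 and -0.26 (adjusted p = 0.183, 0.0612 and 0.388), and the day 4 change was called without day 4 mouse 1.

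Across the members, 2 of 25 probe sets had no overlap between day 2 and day 0 (Ppargc1a 1460336_at and Nrf1 1445914_at, both lower; 2.34% of all probe sets had no overlap). At day 4 it was 6 of 25 against 11.5%, and at day 6 it was 8 of 25 against 15.3%, all of them lower. Of the 10 genes, 3 had a called probe set at day 4 and the same 3 at day 6. With the mean of a gene's probe sets in place of each probe set, Hnf4a was called at day 4 (-0.62, adjusted p = 0.000685), and Ppargc1a (-1.55, 2.34e-05), Ppara (-0.81, 0.0144) and Hnf4a (-0.70, 4.18e-05) at day 6.

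Comparing treated days with each other brought in Ppargc1b, Pparg, Rxra and Nrf1. From day 2 to day 4, 4 of 25 probe sets fell (13.1% of all were called, 6.15% lower): Hnf4a 1450447_at by 1.01 ± 0.16, Hnf4a 1421983_s_at by 0.52 ± 0.13, Pparg by 0.60 ± 0.18 and Rxra 1425762_a_at by 0.47 ± 0.15. The Rxra call (adjusted p = 0.0423) was lost without the 4 arrays that stood apart (adjusted p = 0.103) and without any single one of day 2 mice 1, 7, 8 and 17 or day 4 mice 1, 4, 6 and 8. Leaving out 1 array moved the count between 2 and 7: it was 2 without day 2 mouse 7 or 17 or day 4 mouse 1, 4 or 6, and 7 without day 6 mouse 7, and it was 0 with the pan-epithelial covariate. With the hybridization control covariate Hnf4a 1450447_at alone was called; the others were Hnf4a 1421983_s_at (-0.41, adjusted p = 0.227), Pparg (-0.10, 0.842) and Rxra (-0.28, 0.497).

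From day 2 to day 6, 12 of 25 fell and 1 rose (25.8% of all were called, 12.9% lower and 13% higher). Those that fell were all 5 probe sets of Ppargc1a, by 1.10 to 1.71, all 4 of Hnf4a, by 0.33 to 0.83, Ppara 1439675_at by 0.83 and 1457721_at by 0.70, and Ppargc1b by 0.47. Nrf1 1434627_at rose by 0.31 ± 0.11 (adjusted p = 0.0424). That call was lost without the 4 arrays that stood apart (adjusted p = 0.108), under quantile normalization (0.11) and median centring (0.165), and without any single one of day 2 mice 1, 7, 8, 17 and 52 or day 6 mice 1, 4, 7 and 29. The count of 13 was 6 with the hybridization control covariate, which ended the calls of Hnf4a, Ppara and Ppargc1b (adjusted p from 0.074 to 0.607). It was 4 with the pan-epithelial one, under which the calls of Hnf4a, Ppara, Ppargc1b, Nrf1 and Ppargc1a 1456395_at were lost.

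Genes that work with the members were followed in 6 lists, each gene by its brightest tested probe set. None of their genes was called at day 2, where 0.0802% of 12464 genes of the array were. Over all these genes 4.59% were called lower and 12.7% higher at day 4, and 13.9% lower and 17.8% higher at day 6. Of 25 tested ERR alpha and NRF-1 target genes, which encode respiratory chain and citric acid cycle proteins, 14 fell and none rose at day 6, with a median of -0.16, beside 13.9% lower, 17.8% higher and a median of 0.02 over all genes. The falls were small: Ndufb5, a complex I subunit, went from 7742 ± 682 (SD, n = 5) to 6268 ± 512 (n = 6), which is -0.30 (adjusted p = 0.000464), and the isocitrate dehydrogenase subunits Idh3a and Idh3b changed by -0.28 and -0.27 (adjusted p = 0.00216 and 0.000857). Pan-epithelial markers had the same median, -0.16, with 7 of 18 lower. Their part in the fall of the target genes was not tested.

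At day 4 the same list had 3 of 25 genes lower and 1 higher, beside 4.59% and 12.7% of all genes. Uqcrfs1, the Rieske protein of complex III, changed by -0.29 (adjusted p = 0.011) and Atp5j, an ATP synthase subunit, by -0.15 (adjusted p = 0.0271). The gene that rose was Slc25a4, the ADP/ATP carrier isoform of muscle, from 4758 ± 379 to 7329 ± 1637 (0.60, adjusted p = 0.00942). Skeletal muscle markers summed to a median of 18934 at day 0 and 53329 at day 4, and smooth muscle markers rose in 8 of 12; their part in the Slc25a4 value was not tested.

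HNF4A targets of the intestinal epithelium were lower where they were called, apart from 1. Of 18 tested, 5 fell and none rose at day 4 (median -0.38), and 6 fell and 1 rose at day 6 (median -0.22). Over all genes 4.59% were lower and 12.7% higher at day 4, with a median of 0.06, and 13.9% lower and 17.8% higher at day 6, with a median of 0.02. Pck1, the gluconeogenic enzyme that is also a fat cell marker, went from 2263 ± 303 at day 0 to 719 ± 246 at day 6 (-1.69 ± 0.16, adjusted p = 8.98e-08). Ihh, the hedgehog ligand of differentiated epithelium, changed by -0.53 and -1.12 at days 4 and 6 (adjusted p = 0.0378 and 4.17e-05), and Mep1a, a brush border protease subunit, by -0.61 and -0.95 (adjusted p = 0.00827 and 7.28e-05). Absorptive colonocyte markers were lower in 5 of 14 at day 4 and in 4 of 14 at day 6, with 1 higher, and their part was not tested.

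Of 21 tested PPAR target genes, 2 fell and none rose at day 4, and 4 fell and 3 rose at day 6, with medians of 0.03 and 0.11. The day 6 shares lay near those of all genes (13.9% lower and 17.8% higher). Angptl4, the secreted inhibitor of lipoprotein lipase, rose from 239 ± 81.1 to 833 ± 350 at day 6 (1.69 ± 0.28, adjusted p = 7.24e-05), Vnn1, a pantetheinase, by 0.99 (adjusted p = 0.00296) and malic enzyme Me1 by 0.65 (adjusted p = 0.00132). The genes that fell at day 4 were Fabp2, the fatty acid binding protein of enterocytes (-0.51, adjusted p = 0.00548), and Creb3l3, a membrane-bound transcription factor (-1.32, adjusted p = 0.0171), which also stands in the HNF4A list. At day 6, 11 of 12 macrophage markers and all 4 tested neutrophil markers rose, and their part in the 3 rises was not tested.

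Of 23 tested partners and regulators of PGC-1, 4 rose and 1 fell at day 4, and 2 rose and 5 fell at day 6. The day 4 shares lay near those of all genes (12.7% higher and 4.59% lower), beside 17.8% higher and 13.9% lower at day 6. Mef2c, a transcription factor that activates Ppargc1a in muscle, rose from 361 ± 40 to 684 ± 184 at day 4 (0.85, adjusted p = 0.00315) and to 604 ± 143 at day 6 (0.69, adjusted p = 0.00773). Creb1, a transcription factor that binds cyclic AMP response elements, fell by 0.42 at day 4 (adjusted p = 0.0247), and the acetyltransferase Ep300 rose by 0.39 (adjusted p = 0.023). At day 6 the kinase Akt2 rose by 0.50 (adjusted p = 6.35e-05) and Prkaa2, a catalytic subunit of the energy sensor AMPK, fell by 0.36 (adjusted p = 0.00878). Smooth muscle markers rose in 8 of 12 and endothelial markers in 11 of 12 at day 4, and their part in the Mef2c value was not tested.

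Among 23 other nuclear receptors, 2 rose and none fell at day 4, and 5 rose and 5 fell at day 6, beside 12.7% higher and 4.59% lower, and 17.8% higher and 13.9% lower, of all genes. Esrrg, a receptor of the same family as Esrra, had 222 ± 26.2 at day 0 and 218 ± 18.9 at day 4, and fell to 88.8 ± 59 at day 6 (-1.35 ± 0.25, adjusted p = 0.000289). Nr2f1, an orphan receptor of the COUP family, went from 56.3 ± 5.44 to 190 ± 88.1 at day 6 (1.41, adjusted p = 8.22e-05), while markers of enteric neurons and glia rose in 6 of 12; their part was not tested. Rarg, a retinoic acid receptor, rose by 0.77 and 0.81 at days 4 and 6 (adjusted p = 0.0119 and 0.00475), and the clock receptor Nr1d2 by 0.60 at day 4 (adjusted p = 0.0028). Nr1d2 was 0.51 above day 0 already at day 2 without a call (adjusted p = 0.106), and the hour of sampling is not given in the sources used here.

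In the list for maintenance of mitochondrial DNA, 1 of 13 tested genes was called, beside 17.2% of all genes at day 4 and 31.7% at day 6. Tfb2m, a partner of Tfam in mitochondrial transcription, fell from 1536 ± 214 to 1146 ± 131 at day 4 (-0.42, adjusted p = 0.00351) and to 1112 ± 83.7 at day 6 (-0.45, adjusted p = 0.000748). The list's median was 0.20 at day 4, opposite in sign to its only call, and -0.07 at day 6.

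**Figure D5:**
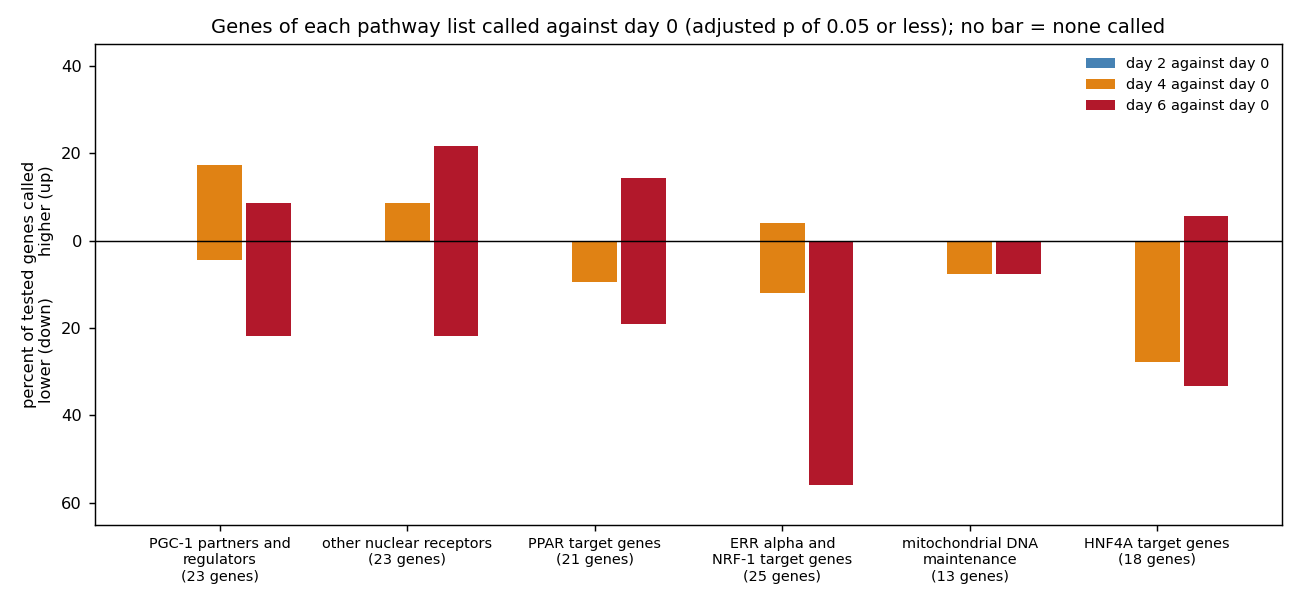
Percent of the tested genes of each pathway list called higher (upward bars) or lower (downward bars) than day 0 by limma at days 2, 4 and 6, with the number of tested genes under each list. No list has a bar at day 2, and 14 of 25 ERR alpha and NRF-1 target genes are lower at day 6.

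For a gene's pattern over the 23 arrays, likeness was the root mean square of the difference between log2 values centred on their day 0 means. It was computed against 12454 other genes for the brightest called probe set of each of the 7 members with a call in any comparison. The genes most like Ppargc1a 1460336_at were Gprin3 (0.53), Cpm (0.56) and Trpm6 (0.62), where the median gene had 1.60. Cpm, a membrane carboxypeptidase, had changes of -1.06, -1.49 and -1.75 at days 2, 4 and 6. Closest to Hnf4a 1427001_s_at were Guca2a (0.09), the guanylin gene of colonocytes, Tspan1 (0.10) and Pdlim1 (0.11), with 0.37 for the median gene. Ppargc1b was nearest to Bdh1 (0.15), the ketone body enzyme, and to Sema3b and Slc25a39 (0.16 each), and Pparg to 1810065E05Rik (0.21), Akr1c19 (0.22) and Slc35d1 (0.22). Ppara 1457721_at lay nearest to Zmynd8 (0.23) and to Sphk2 and Nr5a2 (0.24 each), Nrf1 1434627_at to Med7 (0.14), Gar1 (0.15) and Wapl (0.16), and Rxra 1425762_a_at to Ogfod2, Slc25a10 and Dnm2 (0.20 to 0.21). These values describe the arrays and were not tested.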

How the data were processed

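Colon RNA of 23 mice was hybridised to Affymetrix Mouse Genome 430 2.0 arrays, with a separate array for each mouse. Each deposited value is a linear signal intensity for 1 probe set, which the authors made with MAS5 per the submitters' processing notes. No version or batch is given in the labels used here. Each array's mean, after trimming 2% at each end, was 500, so no further scaling was applied; a change in total RNA per cell cannot show. Of 45101 probe sets, 64 controls were left out. Members, lists, tests and alternatives were chosen with earlier results of these data known. The platform annotation, which can be old, gave gene symbols, and 281 of 306 list entries matched a tested or untested probe set; the others were not analysed here.

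Signals were taken as log2(signal + 16), which understates changes of dim probe sets. Values are named as signals or as differences on that log2 scale, and levels of different probe sets were not compared. All 4 days entered 1 fit (R 4.3.3, limma 3.58.1, lmFit followed by eBayes with an intensity trend), two-sided, with Benjamini-Hochberg adjustment over all 24627 tested probe sets. A pair of probe sets was tested in the same way on the difference, within each array, between the brightest tested probe set of a gene and each other, over 9177 pairs. The fits were tested on simulated data. The labels give separate animals as replicates, and their number limits the precision. All member probe sets are named; from each pathway list and comparison with day 0 up to 3 called genes, taken by size of change, could be named, or in the absence of calls up to 2 genes, taken by smallest p; a named gene may appear at other days too. Alternatives were the pseudocount, the filter, normalization, the fit, covariates, the block by mouse number and leaving out arrays. Promoter windows are from RefSeq.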

Additional observations from a re-analysis of the deposited data

Results flagged for a closer look

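In 5 of 100 groups (25 probe sets on 4 days) the highest or lowest array lay far from the rest by Dixon's test, which chance does in about 1 of 20 groups. Ppara 1449051_at had 29.76 on day 4 mouse 3, where the other 5 arrays ran from 113.3 to 190. Esrra 1460652_at had 1298 on day 0 mouse 2, against 1814 to 2045 on the other 4. Nrf1 held the remaining 3. Probe set 1424787_a_at had 422.3 on day 0 mouse 5, against 240 to 262.2 on the others. Probe set 1445914_at had 271.8 on day 0 mouse 1, against 141.9 to 161.2. Probe set 1420978_at had 52.57 on day 2 mouse 6, 1 of the arrays with pancreas signal, against 124.7 to 161.2. None of the 5 lay in Ppargc1a or Hnf4a.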

How the results depend on the processing

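No result of the members reversed under any alternative. Counts of called probe sets moved most with covariates; the cause was not tested, and 2 of them moved with day. With the hybridization control covariate the counts were 1 in place of 5 (day 4 against day 0), 5 in place of 10 (day 6 against day 0), 1 in place of 4 (day 4 against day 2) and 6 in place of 13 (day 6 against day 2), and pairs were 4 and 0 in place of 7 at days 4 and 6. With the pan-epithelial covariate they were 3, 7, 0 and 4, and 4 pairs at day 6. With the arrays of days 2 and 4 alone, 8 probe sets were called between them. With the mean of the probe sets of each gene, 1 gene in place of 3 was called at day 4.

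Leaving out 1 array gave 0 to 0, 4 to 6 and 10 to 14 probe sets against day 0 at days 2, 4 and 6, then 2 to 7 (day 4 against day 2), 12 to 15 (day 6 against day 2) and 5 to 6 (day 6 against day 4). Pairs ranged from 0 to 1, 7 to 7 and 6 to 7, the 1 at day 2 arising without day 2 mouse 1. There were 51 single calls, which are the called probe sets of all comparisons together with the pairs called at days 4 and 6. Kept were 22 with the hybridization control covariate, 30 with the pan-epithelial, 50 with the skeletal muscle and 49 with the white adipocyte one. Without the 4 arrays that stood apart, 49 were kept.

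Mouse numbers recur across days. Over 17 pairs of arrays that share a number, deviations from the day means correlated at -0.11 to 0.59 (median 0.03), above 0.1 in 7; over 181 other pairs from different days the highest was 0.30, and 27 lay above 0.1. Of 17 arrays with a partner, 7 correlated best with their own number. The labels do not say that a number links mice, so it was not taken as a pairing. With the mouse number as a block, 33 of the 51 calls were kept and 18 were lost. The 18 are given here as a count only and are not named beside the results of each gene. Arrays whose number stands on no other array carry no weight in that fit. These are day 0 mice 2 and 5, day 2 mice 17 and 52 and day 6 mice 21 and 29. The block gave 6 and 8 probe sets at days 4 and 6 against day 0, 2 (day 4 against day 2), 7 (day 6 against day 2) and, at day 6, 3 pairs.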

Other observations

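A probe set annotated to Ppard together with 1810013A23Rik, 1447902_at, belongs to no single gene and lay below the filter on low values. Its signals ran from 4.71 to 36.3 at day 0, from 19 to 68.7 at day 2, from 29.6 to 60.6 at day 4 and from 38.1 to 99 at day 6, and day 6 lay wholly above day 0. Fitted over all probe sets without the filter, its changes were 1.04 at day 4 (adjusted p = 0.011) and 1.33 at day 6 (adjusted p = 0.000632), while Ppard 1439797_at changed by -0.48 and -0.45 without a call.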
